A study of Mus musculus with 8 samples.

Results

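The SREBP processing machinery comprises 7 genes, taken by symbol from the 24942 genes of the deposited table: Srebf1 and Srebf2, Scap, Insig1 and Insig2, and Mbtps1 and Mbtps2. All 7 passed the expression minimum and were tested. RNA was sequenced from retinal ganglion cells, the neurons whose axons form the optic nerve. They were purified from mice at postnatal day 8 by immunopanning (selection on dishes coated with antibody), and their RNA was taken on the dish without culture. NPC1-deficient mice gave 4 libraries and their wildtype littermates 4, called 1 to 4 within each group. A strain field names balb/cnctr-npc1m1n/j for every library, so both groups share that strain. That field reads wildtype for the first 2 libraries of either group and homozygous for the last 2. This contradicts the titles and descriptions, which are followed here. The labels do not say how many animals gave a library, so a p-value reflects the spread among these libraries alone, which may be technical.

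SREBP transcription factors are made as precursors in the membrane of the endoplasmic reticulum, bound to the escort protein SCAP. When sterols are plentiful, INSIG proteins hold the SCAP-SREBP complex there. When sterols are scarce, the complex moves to the Golgi, where the site 1 and site 2 proteases (Mbtps1 and Mbtps2) release the part that enters the nucleus. That part switches on genes of cholesterol and fatty acid synthesis and of lipoprotein uptake, Insig1 among them. NPC1 exports cholesterol from lysosomes, and the study asks how its loss alters gene expression in this neuron. Read counts report RNA and not the cleavage of the SREBP proteins.

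Libraries held 33030175 to 44050118 reads assigned to genes. Npc1, which checks the labels, had 66.1 to 140 normalized reads in NPC1-deficient and 707 to 857 in wildtype libraries. Every library titled NPC1-deficient lay far below every wildtype library. The ganglion cell factor Pou4f2 stood between 11296 and 12762 normalized reads in NPC1-deficient libraries and between 11047 and 11744 in wildtype libraries. Of 14 ganglion cell markers 12 were higher on average in NPC1-deficient libraries, and none was called. Summed, they stood at 428593 to 454715 in NPC1-deficient and 400785 to 427447 in wildtype libraries, with no overlap. Microglial markers, 14 of 14 listed, were each lower on average in NPC1-deficient libraries. Their summed level was 1243 to 2682 there and 2311 to 11895 in wildtype libraries, with wildtype 1 the lowest of its group and none of the 14 at 0 in all libraries. Of 15 rod markers 14 were lower on average in NPC1-deficient libraries, and none was called.

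Insig1 was the one machinery gene whose libraries separated by genotype, with a mean 1.26-fold that of wildtype. The other 6 genes overlapped between the groups. No member passed over all genes tested by limma (a linear model on log2 values, adjusted p below 0.05), either higher or lower. In the same fit 0.104% of 15386 genes were called, made up of 0.039% higher and 0.065% lower. At an unadjusted p below 0.05 the model counted 1 member, Insig1, which was higher. Of all genes 6.76% were below it, made up of 2.39% higher and 4.37% lower. The edgeR quasi-likelihood test on recovered reads called no member, beside 0.104% of all genes. DESeq2 called 1, Insig1, beside 1.6% of all genes, or 0.312% higher. Of the 7 log2 fold changes 6 were positive. Their median was 0.12, against 0.0050 over all genes.

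**Figure D1:**
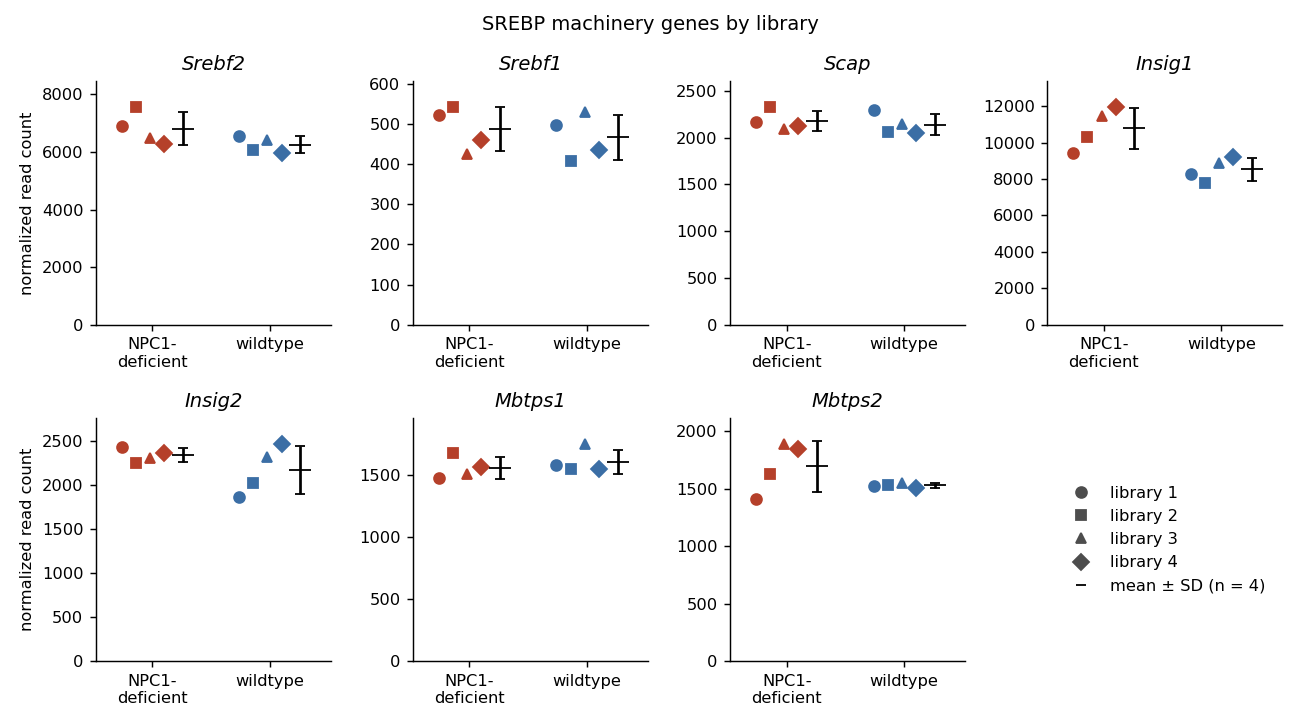
Normalized read count (vertical axes, each from 0) of the 7 machinery genes in NPC1-deficient libraries (left) and wildtype libraries (right). Symbols are single libraries and bars are mean ± SD (n = 4). Insig1 is the panel in which every NPC1-deficient library, from 9425 to 11949, lies above every wildtype library, from 7774 to 9190.

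The order of the genes was nearly the same in both groups when levels were set per kilobase of exon (GENCODE M21 length). Insig1 stood highest, at 3488 ± 367 normalized reads per kb in NPC1-deficient and 2762 ± 204 in wildtype libraries (SD, n = 4). Srebf2 followed at 948 ± 78.2 and 871 ± 40.1 per kb, and Insig2 at 675 ± 22.2 and 625 ± 78.8. Scap had a mean of 293 (281 to 313) per kb in NPC1-deficient and 287 (276 to 309) in wildtype libraries. The proteases came next, Mbtps2 at 168 ± 21.8 and 151 ± 1.91 and Mbtps1 at 147 ± 8.18 and 152 ± 9.19 per kb. Srebf1 was lowest, at 86.5 ± 9.59 per kb in NPC1-deficient and 82.9 ± 9.90 in wildtype libraries. The 2 proteases overlapped each other in both groups. Per kb, all other neighbours in the order were apart in every library. The length covers all annotated exons of a gene. Without that division Insig2, at 1869 to 2472 normalized reads, overlapped Scap, at 2052 to 2327.5. Among all genes tested, Insig1 lay at the 95.5th percentile of mean level and Srebf1 at the 48.7th, both without correction for length.

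Srebf2 encodes SREBP-2, the factor that favours cholesterol synthesis genes (ENSMUSG00000022463, chr15:82147181-82205379, plus strand, mm10). It had 6912, 7559, 6503 and 6280 normalized reads in NPC1-deficient libraries 1 to 4, against 6568, 6057, 6435 and 5973 in wildtype libraries. NPC1-deficient 1 and 2 lay above all wildtype libraries, and NPC1-deficient 3 and 4 lay among them. The log2 fold change was 0.12 (SE 0.06, 95% interval -0.015 to 0.26, limma adjusted p = 0.812). It was 0.20 in libraries 1 and 2 alone and 0.04 in 3 and 4 alone.

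Srebf1 encodes SREBP-1, which favours fatty acid synthesis genes (ENSMUSG00000020538, chr11:60199089-60222581, minus strand). Counts per gene do not separate its 1a and 1c forms. NPC1-deficient libraries 1 to 4 had 523, 541, 425 and 461 normalized reads, and wildtype libraries had 496, 408, 530 and 434. The groups overlapped throughout. The log2 fold change was 0.06 (95% interval -0.17 to 0.29, limma adjusted p = 0.995), with 0.24 in libraries 1 and 2 alone and -0.12 in 3 and 4 alone. It was the least abundant member, with 390 to 576 recovered reads in a library. Of its exonic length, 3.11% is shared with other annotated genes, mostly Rai1 on the opposite strand.

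Scap, the sterol-sensing escort, showed almost no difference (ENSMUSG00000032485, chr9:110333288-110384950, plus strand). It had 2168, 2327, 2093 and 2123 normalized reads in NPC1-deficient libraries 1 to 4, against 2300, 2062, 2144 and 2052 in wildtype libraries. The log2 fold change was 0.03 (95% interval -0.10 to 0.15, limma adjusted p = 0.995). The antisense gene 5830462I19Rik shares 13.2% of Scap exonic length, but it was listed at 0 in 6 libraries and at most 3.10 in the others.

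Insig1 encodes a retention protein of the endoplasmic reticulum and is itself a target of the SREBP factors (ENSMUSG00000045294, chr5:28071363-28078662, plus strand). Its normalized reads were 9425, 10332, 11453 and 11949 in NPC1-deficient libraries 1 to 4, against 8301, 7774, 8902 and 9190 in wildtype libraries. The lowest NPC1-deficient library exceeded the highest wildtype library by 235 normalized reads. Among all genes tested, 1.86% were separated in this direction. The log2 fold change was 0.33 (SE 0.08, 95% interval 0.17 to 0.50), ranked 133rd of 15386 genes by p, and it missed the threshold (limma adjusted p = 0.113). The exact p over reassignments of the libraries was 0.0286 (two-sided permutation, unadjusted), the smallest that 4 against 4 can reach. Every gene whose groups do not overlap has this p, so it adds nothing to the separation. The difference was 0.30 within libraries 1 and 2 and 0.37 within 3 and 4. With the library set (1 and 2 against 3 and 4) as a term it passed (limma adjusted p = 0.0127). It also passed within libraries 3 and 4 alone (limma adjusted p = 0.00446) and with DESeq2 (adjusted p = 0.00843). Insig1 passed too without wildtype 1 and NPC1-deficient 1 together (limma adjusted p = 0.0486), but edgeR did not call it (adjusted p = 0.0904). In either direction, these passing settings called 99, 335, 246 and 170 of all genes, in that order. The main fit and edgeR called 16 each.

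Markers of ganglion cells and of several other cell types moved with genotype in the same libraries. Their part in the Insig1 difference was not tested. The summed level of 9 Müller glia markers was 18525 to 19155 in NPC1-deficient and 20503 to 21350 in wildtype libraries, with 7 of the 9 lower and none at 0 in all libraries. Of the 9, 1 was called lower, Apoe, a lipid carrier also made by other glia. It had 814 ± 160 normalized reads in NPC1-deficient and 2082 ± 764 in wildtype libraries (SD, n = 4). The Apoe difference is a large part of the gap between the Müller glia sums. Amacrine markers had a median log2 fold change of -1.23, with 8 of 10 lower, none called and overlapping sums of 120434 to 147652 in NPC1-deficient and 124226 to 136727 in wildtype libraries. Among them Gad1, which makes the transmitter GABA, averaged 370 ± 176 normalized reads in NPC1-deficient and 1214 ± 450.4 in wildtype libraries (SD, n = 4). The groups did not overlap for Gad1, whose level is a small part of the amacrine sums. These sums mainly follow other genes of the list. Bipolar cell markers had a median of -0.42, with 9 of 10 lower, none called and overlapping sums of 7817 to 10516 in NPC1-deficient and 9730 to 11187 in wildtype libraries. The sum of 6 endothelial markers, all lower and none at 0 throughout, was 227 to 300.5 in NPC1-deficient and 303 to 536 in wildtype libraries. Cone markers were lower in 7 of 7, with overlapping sums. Astrocyte markers were higher in 4 of 6 (median 0.09) and pericyte markers in 3 of 5 (median 0.35), with overlapping sums. Oligodendrocyte lineage markers were lower in 5 of 7 (median -0.10), also with overlapping sums. Wildtype 1, whose microglial sum of 2311 lay within the NPC1-deficient range, had 8301 normalized reads of Insig1. The same library had the highest endothelial sum, 536, and the highest cone sum, 457, of all libraries. Fewer cells of a type and less RNA per cell cannot be told apart in these bulk libraries.

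The promoters of Insig1 and Srebf2 are shown because both genes are known SREBP targets, and the libraries separated by genotype for Insig1 and overlapped for Srebf2. The letters come from RefSeq on GRCm38.p6, 5′ to 3′ on the gene's strand, and stop before the first base of the GENCODE gene. Capitals mark a sterol regulatory element core (ATCACCCC), an E-box (CACGTG) or a CCAAT box (CCAAT, or ATTGG on the other strand). The Insig1 stretch is chr5:28071162-28071362 and the Srebf2 stretch is chr15:82147019-82147180.
Insig1: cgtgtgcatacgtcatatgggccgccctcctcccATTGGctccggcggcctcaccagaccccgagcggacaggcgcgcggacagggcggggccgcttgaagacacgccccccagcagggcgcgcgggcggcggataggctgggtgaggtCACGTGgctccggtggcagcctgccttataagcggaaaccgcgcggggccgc
Srebf2: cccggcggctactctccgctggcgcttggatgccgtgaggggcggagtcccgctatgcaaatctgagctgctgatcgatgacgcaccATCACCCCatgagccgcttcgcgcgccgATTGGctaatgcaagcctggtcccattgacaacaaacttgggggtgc

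The motifs were searched on both strands in the 250 bases before each RefSeq start, for all 12 promoters listed for the 7 genes. No motif match overlaps another there. The 2 Scap promoters themselves overlap, with starts 68 bases apart. The sterol regulatory element core was in 1 of the 12, that of Srebf2, and in 0.654% of all 32851 promoters. The E-box was in 2, those of Insig1 and one of Scap, beside 6.02% of all promoters. The CCAAT box was in 5, from Insig1, Insig2, Srebf1 and Srebf2, beside 33.8% of all. The longer sterol regulatory element of the low density lipoprotein receptor gene, which contains the core, was in none of the 12 and in 0.0731% of all promoters. A match is a description of letters and not a binding site.

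Insig2, the second retention protein, overlapped between groups (ENSMUSG00000003721, chr1:121304353-121332589, minus strand). NPC1-deficient libraries 1 to 4 had 2437, 2256, 2313 and 2369 normalized reads. Wildtype libraries spread more widely, with 1869 and 2024 in libraries 1 and 2 and 2318 and 2472 in libraries 3 and 4. The log2 fold change was 0.12 (95% interval -0.06 to 0.29, limma adjusted p = 0.928). It was 0.27 in libraries 1 and 2 alone and -0.032 in 3 and 4 alone. This difference between the sets had an unadjusted p of 0.0104 and did not pass over all genes (limma interaction adjusted p = 0.236).

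Mbtps1, the site 1 protease gene, had 1476, 1671, 1506 and 1563 normalized reads in NPC1-deficient libraries 1 to 4, against 1579, 1544, 1748 and 1548 in wildtype libraries (ENSMUSG00000031835, chr8:119508156-119558735, minus strand). It was the one member with a negative log2 fold change, -0.05 (95% interval -0.18 to 0.09, limma adjusted p = 0.995). Apart from wildtype 3, the libraries of both groups lay between 1476 and 1671.

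Mbtps2, the site 2 protease gene, is X-linked (ENSMUSG00000046873, chrX:157535371-157598715, minus strand). NPC1-deficient libraries 1 to 4 had 1411, 1627, 1888 and 1845 normalized reads, while wildtype libraries had 1524, 1529, 1552 and 1505. NPC1-deficient 1 lay below all wildtype libraries and NPC1-deficient 2, 3 and 4 above all of them. The coefficient of variation was 13.0% in NPC1-deficient and 1.26% in wildtype libraries. The 1337 to 1678 reads behind the wildtype values carry a counting error of 2.44% to 2.73%, more than that spread. The log2 fold change was 0.14 (95% interval -0.04 to 0.32, limma adjusted p = 0.895). It was -0.011 in libraries 1 and 2 alone and 0.29 in 3 and 4 alone, where it passed (limma adjusted p = 0.0469). With 2 libraries a group, 335 of all genes were called in that subset. The difference between the sets did not pass over all genes (unadjusted p = 0.0175, limma interaction adjusted p = 0.269). Unadjusted, 13.4% of all genes had an interaction p below 0.05, and 0.078% passed adjusted.

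Markers of sex differed between libraries, in part along with genotype. Their part in the values of Mbtps2, Insig1 or any other gene was not tested. Xist, the RNA of the inactive X chromosome, stood at 0 to 68.1 normalized reads in NPC1-deficient and 18.2 to 595 in wildtype libraries. Y-linked genes summed to 2597 to 3788 in NPC1-deficient libraries, against 45.6, 3093, 1241 and 1508 in wildtype libraries 1 to 4. Mbtps2 had 1524 normalized reads in wildtype 1, where Xist was highest at 595, and 1505 to 1552 in the other wildtype libraries. NPC1-deficient 1 had the highest Xist of its group, 68.1, and the lowest Y-linked sum, 2597. Mbtps2 was also lowest of its group there, at 1411, against 1627 to 1888 in the other NPC1-deficient libraries. Yy2, a gene on the same strand, shares 28.4% of the exonic length of Mbtps2, so Mbtps2 reads are uncertain in part. The deposited table does not list Yy2 under that symbol, so its level cannot be given.

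**Figure D2:**
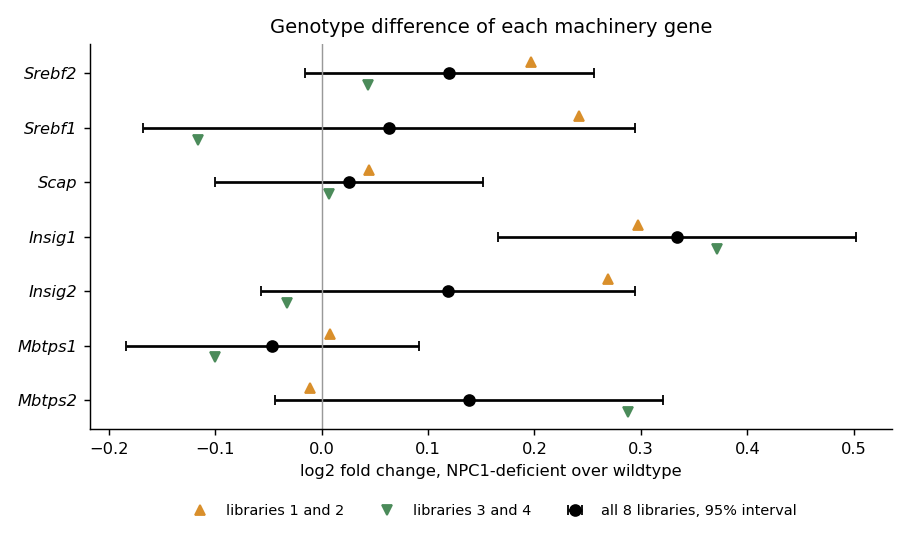
Log2 fold change of NPC1-deficient over wildtype (horizontal axis) for the 7 machinery genes. Black points are the limma fit of all 8 libraries with 95% intervals, upward triangles libraries 1 and 2 alone, and downward triangles libraries 3 and 4 alone. The Insig1 interval, 0.17 to 0.50, is the one that lies above 0, and Srebf1, Insig2, Mbtps1 and Mbtps2 differ in sign between the sets.

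Ratios within a library do not depend on its size factor, and 4 were compared by exact two-sided permutation tests. The log2 ratio of Insig1 over Insig2 counts was 1.95, 2.19, 2.31 and 2.33 in NPC1-deficient libraries 1 to 4, against 2.15, 1.94, 1.94 and 1.89 in wildtype libraries. The mean difference was 0.22 (exact p = 0.0571, adjusted over the 4 ratios 0.171). It was 0.028 in libraries 1 and 2 alone and 0.40 in 3 and 4 alone. Insig1 over Scap differed by 0.31 (exact p = 0.0857, adjusted 0.171), with 2.12, 2.15, 2.45 and 2.49 in NPC1-deficient and 1.85, 1.91, 2.05 and 2.16 in wildtype libraries. Wildtype 4 overlapped the NPC1-deficient range there. Srebf2 over Srebf1 differed by 0.06 (exact p = 0.486) and Mbtps1 over Mbtps2 by -0.18 (exact p = 0.229). No ratio passed, and a p this size does not show that the proportions were equal.

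Target genes of SREBP-2 in sterol synthesis and uptake, 23 in number, were all tested and had positive fold changes (median log2 fold change 0.35). Of these, 5 rose over all genes tested, and 20 had every NPC1-deficient library above every wildtype library, beside 0.039% and 1.86% of all genes. The sterol dehydrogenase Nsdhl rose by 0.40 (SE 0.05, limma adjusted p = 0.0273), with 5785 ± 275 normalized reads in NPC1-deficient and 4386 ± 176 in wildtype libraries (SD, n = 4). Fdps, the farnesyl diphosphate synthase gene, rose by 0.48 (SE 0.06, limma adjusted p = 0.0273), and Mvk and Mvd of the mevalonate pathway rose by 0.35 and 0.47 (limma adjusted p = 0.0312 each). Insig1, at 0.33, lay close to the list median, and Srebf2, at 0.12, lay below all 23. Called sterol targets numbered 13 without NPC1-deficient 1, where 26 of all genes were called in either direction. They numbered 2 without NPC1-deficient 2 (4 of all genes) and 0 without NPC1-deficient 3 (2) or wildtype 2 (4). Without wildtype 3 there was 1 (5 of all genes). Called targets were 15 without wildtype 1 and NPC1-deficient 1 together (170 of all genes), and 19 with DESeq2 (246).

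Values by library were set beside each other for Insig1, Srebf2 and these targets. The median of the 23 targets, as a log2 difference from the wildtype mean, was 0.27, 0.34, 0.39 and 0.37 in NPC1-deficient libraries 1 to 4, against -0.038, 0.022, -0.026 and 0.036 in wildtype libraries. Insig1 had 0.14, 0.28, 0.43 and 0.49 in NPC1-deficient libraries, against -0.038, -0.13, 0.06 and 0.11 in wildtype libraries. Srebf2 had 0.14, 0.27, 0.06 and 0.0062 in NPC1-deficient libraries, against 0.07, -0.046, 0.04 and -0.07 in wildtype libraries. In NPC1-deficient 3 and 4 Insig1 and the target median were at their highest, and Srebf2 was near the wildtype mean.

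**Figure D3:**
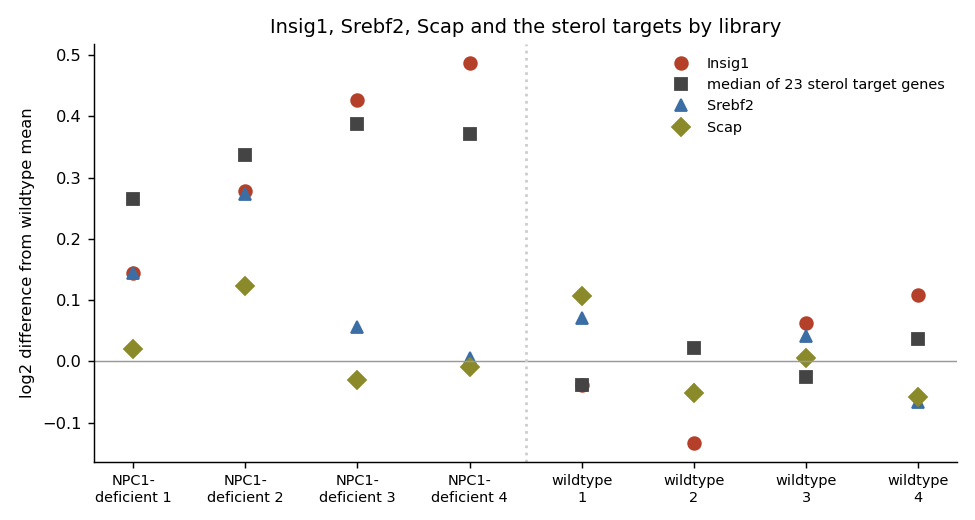
Log2 difference from the wildtype mean (vertical axis) in each library for Insig1, Srebf2, Scap and the median of 23 sterol target genes. Insig1 and the target median lie above all wildtype values in each NPC1-deficient library, whereas Srebf2 in NPC1-deficient 3 and 4, at 0.06 and 0.0062, lies among the wildtype libraries.

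Genes were also ranked by the likeness of their pattern, as Pearson's r of log2 values over the 8 libraries, among 11224 genes with a mean of at least 100 normalized reads. All points share the same libraries and size factors, so r is given as a description. The 3 genes most like Insig1 were enzymes of sterol synthesis. They were Idi1, the isomerase that makes dimethylallyl diphosphate (r = 0.979), Msmo1, a sterol methyl oxidase listed under its older symbol Sc4mol (r = 0.978), and Hsd17b7, a sterol ketoreductase (r = 0.976). With group means removed their r was 0.935, 0.937 and 0.955. Of the 22 sterol targets ranked, 10 were among the 100 of 11224 genes most like Insig1. The median rank of the 22 was 110.5. Most of these targets, like Insig1, were higher in every NPC1-deficient library, which by itself raises r. With group means removed, 3 were among the 100. The highest-ranked 100 held none for Srebf1, Srebf2, Scap, Insig2 and Mbtps1, and 1 for Mbtps2, Hmgcs1. Of the 13 fatty acid targets, 3 were among the 100 genes most like Srebf2, 1 each for Insig1 and Mbtps1, and none for the other members.

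None of the 3 nearest genes of the other members was on the sterol or fatty acid lists. Srebf2 was closest to Itga3, Pitrm1 and Ube4b (r = 0.963, 0.963 and 0.957), and Abcc8 and Nacad were among the 3 closest to Srebf1 (r = 0.962 and 0.961). Scap was closest to Tnks1bp1, Alk and Abcc1 (r = 0.980, 0.967 and 0.964), and Insig2 to Ttc8, Arl8b and Fbxo44 (r = 0.987, 0.966 and 0.964). Mbtps1 was closest to Gspt1, Slc8a1 and Sstr1 (r = 0.975, 0.956 and 0.937), and Mbtps2 to Gm5868, Gpc2 and Dusp18 (r = 0.988, 0.980 and 0.973). Among the members themselves, Srebf2 and Scap (r = 0.818), Insig1 and Mbtps2 (0.798), Srebf1 and Srebf2 (0.763) and Srebf1 and Scap (0.762) were most alike over the 8 libraries. Insig1 and Srebf2 had an r of 0.257, which turned to -0.50 with group means removed.

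Fatty acid target genes of SREBP-1 had a smaller median, 0.21 on the log2 scale over 13 genes, of which 12 were positive. Over all genes tested 1 rose, the desaturase gene Fads1, by 0.28 (SE 0.04, limma adjusted p = 0.0312), beside 0.039% of all genes higher. DESeq2 called 4 higher (0.312% of all genes), 8 were higher at an unadjusted limma p below 0.05 (2.39%), and 5 had no overlap (1.86%). The desaturase genes Scd1 and Fads2 had fold changes of 0.46 and 0.37 (limma adjusted p = 0.0631 and 0.137), and the elongase gene Elovl5 had 0.21 (0.187). The per-library median was 0.25, 0.37, 0.11 and 0.13 in NPC1-deficient libraries 1 to 4, against 0.028, -0.011, 0.031 and -0.044 in wildtype libraries. It was highest in NPC1-deficient 1 and 2, where Srebf1 and Srebf2 were also highest among the NPC1-deficient libraries.

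Genes that act on the machinery showed no call. Of 14 genes of the degradation of INSIG and SREBP proteins, none passed with limma, edgeR or DESeq2 and none had an unadjusted limma p below 0.05, with a median of -0.0100. Erlin1, an endoplasmic reticulum scaffold, had the smallest p at a fold change of 0.26 (limma adjusted p = 0.862). The ubiquitin ligase gene Rnf145 followed at -0.08 (0.869), with every NPC1-deficient library below every wildtype library, beside 2.41% of all genes. The segregase gene Vcp and its membrane partner Faf2 had -0.06 and -0.07 (0.928 and 0.934).

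Transport from the endoplasmic reticulum to the Golgi gave a like picture. Of 13 genes of COPII coats and Golgi factors of SCAP, none passed with limma, edgeR or DESeq2, and the median was -0.014. One, the cargo adaptor gene Sec24b, had an unadjusted limma p below 0.05, with a fold change of -0.19 (limma adjusted p = 0.462) and no overlap between groups. That is 1 in 13, where 4.37% of all genes were lower at that p and 2.41% were separated in that direction. Sec24d, Sec31a and Sec13 had -0.27, -0.07 and 0.07. The Golgi factor Spring1, listed as 2410131K14Rik, had -0.0086.

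Other substrates of the site 1 and site 2 proteases did not pass either. None of 8 was called with limma, edgeR or DESeq2 or had an unadjusted limma p below 0.05, and the median was -0.036. Those with the smallest p were low in count, Creb3l3 with 11.4 ± 4.16 normalized reads in NPC1-deficient and 18.9 ± 6.58 in wildtype libraries (SD, n = 4), Creb3l2 and Creb3l4. Creb3, a membrane-bound transcription factor, had a fold change of 0.03. Among 12 promoter partners and upstream factors none was called with limma, edgeR or DESeq2, and 1, Sp1, had an unadjusted limma p below 0.05 at a fold change of -0.30 (limma adjusted p = 0.735), beside 4.37% of all genes lower at that p. The median was -0.021, and Rxra, Nfya and Med15 had -0.21, -0.11 and -0.07.

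**Figure D4:**
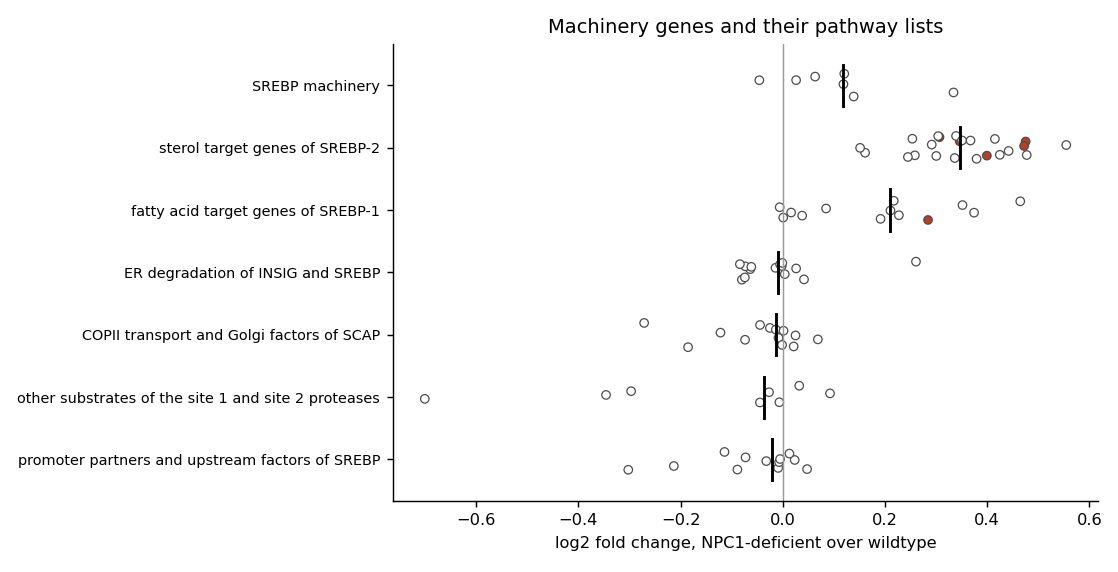
Log2 fold change of NPC1-deficient over wildtype (horizontal axis) for the machinery genes and 6 pathway lists (rows). Circles are genes, filled where the limma adjusted p is below 0.05, and bars are list medians. The medians are 0.35 for sterol targets, 0.21 for fatty acid targets and 0.12 for the machinery, and those of the other 4 lists lie between -0.036 and -0.0100.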

How the data were processed

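The deposited table gives a normalized signal per gene and library, a read count divided by 1 size factor per library, as the deposited values show. CASAVA 1.8.2, HTSeq 0.5.4p3, DESeq2 1.0.19 and mm10 are named without roles in the submitters' processing notes. The aligner is not given in the sources used here, nor is the annotation release. The TruSeq v2 kit does not mark strand, so antisense reads cannot be told apart. All 199536 values (100%) were whole multiples of a library's smallest step within 1e-06 of a read, which gave back whole reads. On these, edgeR 4.0.16 called 16 genes and DESeq2 1.42.0 called 246. Chi-square divided by degrees of freedom ran from 4.50 to 54.3 over pairs within a group, and no pair was merged.

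Genes with a mean of at least 10 were tested (15386 kept, 9556 removed) on log2(value + 1) with limma 3.58.1 in R 4.3.3, mean-variance trend, no covariate and Benjamini-Hochberg adjustment at 0.05. Fold changes are on that scale, which understates low genes. The fit was tested on simulated data. Alternatives were pseudocounts, filters, scalings, robust moderation, a block, library sets, leaving out libraries, edgeR and DESeq2.

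Members and lists were chosen with earlier results of these data known. Named genes are the members, Npc1, up to 4 genes per pathway list with the smallest p, the 3 nearest in pattern, and markers. Spring1, Hmgcs1, Xist, the Y-linked genes, the motifs and the ranks with group means removed were chosen after values were seen. Positions are from GENCODE M21, where 98.1% of gene identifiers were found. Some genes that these rules name are not reported here.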

Additional observations from a re-analysis of the deposited data

Results flagged for a closer look

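The Mbtps1 value of wildtype 3, 1748 normalized reads, stood apart from the other 3 wildtype libraries, which lay between 1544 and 1579. The gap took 0.830 of the group's range, just past Dixon's critical value for 4 samples. Of 22 groups of 4 examined this was the one beyond it, and chance flags about 1 in 20. Without wildtype 3 the Mbtps1 log2 fold change was -0.0043, and neither value passed.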

How the results depend on the processing

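No member was called lower under any alternative. Members called higher numbered 0 in the main comparison, 1 (Insig1) with the library set as a term, with DESeq2 and without wildtype 1 and NPC1-deficient 1 together (added after the data were seen), and 2 (Insig1 and Mbtps2) in libraries 3 and 4 alone. Leaving out single libraries left it at 0. The Insig1 fold change lay between 0.28 and 0.40 over the 22 alternatives, with adjusted p from 0.00446 to 0.311. Its groups do not overlap, so leaving out libraries could not turn its direction. Filters, moderation and added terms leave its fold change as it was. Sterol targets called, 5 at first, were 17 with the library set as a term, 2 in libraries 1 and 2, 17 in libraries 3 and 4, 15 without wildtype 1 and NPC1-deficient 1, 19 with DESeq2, and 0 to 13 when single libraries were left out. All genes called, 16 at first, were 10 at a minimum of 50, 34 with the replicate block, 99 with the library set, 57 in libraries 1 and 2, 335 in libraries 3 and 4, 170 without wildtype 1 and NPC1-deficient 1, 246 with DESeq2, and 2 to 144 when single libraries were left out. The genotype difference in the log2 ratio of Insig1 over Insig2 was 0.028 in libraries 1 and 2 and 0.40 in libraries 3 and 4. The genotype difference for Mbtps1 over Mbtps2 was 0.019 and -0.39 there, and -0.24 to -0.11 when single libraries were left out. The cause of these shifts was not tested.

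With the replicate block Insig1 had a limma adjusted p of 0.0508 and 7 sterol targets were called. Same-numbered libraries did not deviate together (correlations -0.0659 to -0.0169), none correlated best with its own number, and the labels give no pairing. Subsets of libraries 1 and 2 or 3 and 4 have 2 libraries a group, where the smallest exact p of a ratio is 0.333. With 1 library left out it is 0.0286, and no ratio passed (exact p from 0.0571 to 0.943). At 390 to 576 reads a library, Srebf1 had a counting error of 4.17% to 5.06%.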
